A study of Homo sapiens with 4 samples.

Results

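The nuclear genes of mitochondrial complex I were examined in HCT116 cells, an established human colon carcinoma line, grown as multicellular spheroids or as monolayer cultures. Genes were chosen by name: each had at least 1 probe set annotated with a single symbol of the NDUFA, NDUFB, NDUFC, NDUFS, NDUFV, NDUFAB or NDUFAF series followed by a number. This gave 41 genes, 33 encoding subunits and 8 encoding assembly factors (the NDUFAF series), out of 19775 genes with a probe set of 1 symbol. The samples were 2 spheroids cultures and 2 monolayer cultures of the same line, none of them treated, each hybridised to 1 whole-genome expression array. Per the study's methods the cultures of a group were independent. A spheroid was extracted whole, so its rim and core were measured together, and less RNA per cell cannot be told apart from fewer cells of a kind.

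Complex I, or NADH:ubiquinone oxidoreductase, is the entry point for electrons from NADH into the respiratory chain and pumps protons across the inner mitochondrial membrane. Its matrix arm carries the NADH-binding tip and the part that reduces quinone, and its membrane arm pumps protons. Core subunits conserved from bacteria do the catalysis and come from both nuclear and mitochondrial DNA, accessory subunits surround and stabilise them, and assembly factors build the complex in modules without staying in it.

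Values are MAS5 signals, linear brightness units that the authors scaled to a common trimmed mean per array. A difference is the mean log2(signal + 32) of spheroids minus that of monolayer, with its standard error (SE). A gene was called when limma's adjusted p was under 0.05 over 8721 genes whose representative probe set averaged above 300 units. All 41 genes passed that filter. The arrays were alike in the share of probe sets above 300 units (29.8% to 30.0% in spheroids, 27.5% to 28.4% in monolayer). Of 9 epithelial markers, EPCAM, CDH1, KRT8, KRT18 and KRT19 exceeded 300 units on all arrays, while KRT20, VIL1, CDX1 and CDX2 did not. Of 8 markers of other cell types, 6 stayed under the filter, including the leukocyte marker PTPRC and the endothelial marker PECAM1, and COL1A1 and ACTA2 were higher in spheroids by 1.64 ± 0.20 and 1.08 ± 0.26. With spike-in scaling neither was called (0.80 and 0.29), nor was ACTA2 without spheroids replicate 1 (0.94). ACTA2 had 552 and 452 units in spheroids against 239 and 202 units in monolayer. It passed the filter only through its spheroids signals, so its call is tied to the filter. The summed signal of the 8 markers was 3149 and 3430 in spheroids and 1456 and 1062 in monolayer. Most of it was COL1A1, with 2222 and 2659 in spheroids and 869 and 658 in monolayer. Among the markers under the filter, DES, PTPRC and COL3A1 read higher on both spheroids arrays, PECAM1 and CD14 read lower, and VWF overlapped. The part of other cell types in the results below was not tested.

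Complex I genes were lower in spheroids or not called, and none was called higher. Of the 41 genes, 19 were lower and 22 not called, with a median difference of -0.40, against 20.6% of all tested genes called lower, 19.0% called higher (39.6% in either direction) and a median of -0.03. Both spheroids signals lay below both monolayer signals for 31 genes (75.6%), against 36.6% of all tested genes, and above them for NDUFS4 and NDUFB11 alone, against 33.4% of all tested genes. The signals of the remaining 8 genes overlapped. Differences are relative to the trimmed mean of the array, and the Bacillus RNAs spiked in as controls were 1.82-fold brighter in spheroids. The mean log2 signal of these controls was 10.80 and 10.22 in spheroids and 9.54 and 9.74 in monolayer, so replicates differed as well. Scaling to them shifted the median of all genes to -0.87, with 42.4% of genes called lower and 1.94% called higher, and made the difference of every one of the 41 genes negative.

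**Figure D1:**
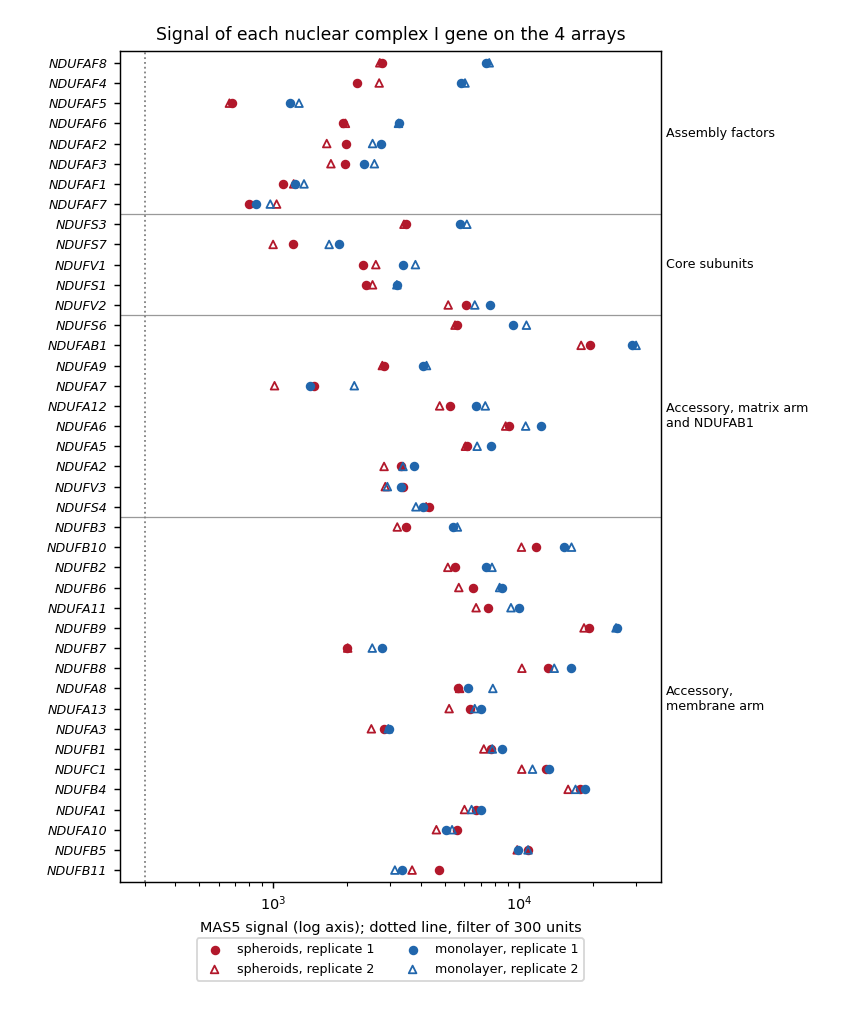
MAS5 signal (x, log axis) of the 41 complex I genes (y, grouped by role) on each of the 2 spheroids arrays (red) and the 2 monolayer arrays (blue), with a dotted line at the filter of 300 units. The red symbols lie left of the blue ones for 31 genes and right of them for NDUFS4 and NDUFB11.

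Assembly factors held the 2 largest decreases. Of 8 tested, 5 were lower (NDUFAF8, NDUFAF4, NDUFAF5, NDUFAF6 and NDUFAF2), 3 were not called, and the median difference was -0.64. Most of these factors act on the quinone-reducing module of the matrix arm (NDUFAF3 to NDUFAF8), where 4 of 6 were lower with a median of -0.78. Both counts stand beside 20.6% of all tested genes called lower, and the module was not tested as a set.

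NDUFAF8, a partner that stabilises NDUFAF5, had signals of 2772 and 2714 in spheroids and 7353 and 7566 in monolayer. The replicates of each group were close together and the groups far apart, the mean in spheroids being 0.368 of that in monolayer (difference -1.43 ± 0.14, limma adjusted p = 1.07e-05). NDUFAF5 itself, which hydroxylates an arginine of the core subunit NDUFS7, was dimmer, with 682 and 663 units in spheroids against 1168 and 1273 units in monolayer (-0.83 ± 0.19, limma adjusted p = 0.00459). A further NDUFAF5 probe set gave -0.87, so both readings of this gene were lower, although these 2 probe sets and the NDUFAF8 one are of kinds that can bind related transcripts.

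NDUFAF4, which joins early assembly intermediates together with NDUFAF3, had 2191 and 2699 units in spheroids against 5810 and 6031 units in monolayer. The spheroids replicates differed more than those of monolayer, but the groups did not overlap (-1.27 ± 0.15, limma adjusted p = 6.23e-05), and a dimmer NDUFAF4 probe set gave -0.92. For its partner NDUFAF3 the signals were 1960 and 1717 in spheroids and 2336 and 2580 in monolayer (-0.41 ± 0.16, limma adjusted p = 0.0620). The groups did not overlap for NDUFAF3 either, but it missed the threshold.

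NDUFAF6, needed early in building the quinone module, had 1915 and 1967 units in spheroids against 3263 and 3234 units in monolayer (-0.73 ± 0.15, limma adjusted p = 0.00236). NDUFAF2, a relative of the subunit NDUFA12 that holds its place until late assembly, had 1970 and 1651 units in spheroids against 2744 and 2537 units in monolayer (-0.54 ± 0.17, limma adjusted p = 0.0210). The call of NDUFAF2 was lost without spheroids replicate 2 (-0.42) or monolayer replicate 1 (-0.48), whereas the other 4 calls held with each array left out. NDUFA12 was lower as well (-0.48 ± 0.13), a call lost without spheroids replicate 2 (-0.41), without monolayer replicate 2 (-0.41) and without the intensity trend.

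NDUFAF1 and NDUFAF7 were not called. NDUFAF1, part of the membrane-bound MCIA complex that builds the membrane arm, had 1099 and 1211 units in spheroids against 1226 and 1334 units in monolayer (-0.15 ± 0.18, limma adjusted p = 0.554). NDUFAF7, an arginine methyltransferase acting on the matrix arm, had 798 and 1032 units in spheroids against 853 and 973 units in monolayer. The signals of NDUFAF7 overlapped, and its difference lay within 0.01 of 0 with an SE of 0.21 (limma adjusted p = 0.989).

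The promoters of 2 lower assembly factors are shown because these genes had large decreases on 2 probe sets each and a single RefSeq start. Each is the 250 bases before the start (RefSeq, GRCh38.p14), NDUFAF4 at chr6:96897892-96898141 on the minus strand and NDUFAF5 at chr20:13784778-13785027 on the plus strand. Capitals mark a CCGGAAG motif, bound by ETS factors such as GABP, in NDUFAF4. In NDUFAF5 they mark an ACGTGC motif, a form of the hypoxia response element, read here on the other strand. ACGTG without the final C was not marked. The wider window described below also held GCGCATG for both genes, outside the printed bases.
NDUFAF4: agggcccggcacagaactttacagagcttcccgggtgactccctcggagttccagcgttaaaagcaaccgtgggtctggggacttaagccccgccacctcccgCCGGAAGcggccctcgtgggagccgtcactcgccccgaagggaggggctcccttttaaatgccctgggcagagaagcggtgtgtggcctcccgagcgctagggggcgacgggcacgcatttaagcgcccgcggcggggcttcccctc
NDUFAF5: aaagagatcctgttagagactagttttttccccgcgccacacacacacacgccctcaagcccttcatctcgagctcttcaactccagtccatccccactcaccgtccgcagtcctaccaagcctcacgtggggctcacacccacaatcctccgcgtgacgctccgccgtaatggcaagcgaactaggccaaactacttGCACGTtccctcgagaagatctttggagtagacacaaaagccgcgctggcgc
The letters are a description of the window and were not tested as sites.

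Across the 38 of 41 genes with a RefSeq promoter, 4 motifs were searched on both strands over the 250 bases before and 50 after each start. CCGGAAG was found for 7 genes (18.4%), against 25.2% of 7318 tested genes with a promoter, and ACGTGC for 5 (13.2%), against 12.1%. GCGCATG, part of the NRF1 motif, was found for 9 genes (23.7%), against 9.50%, and AAGATGG, part of the YY1 motif, for 10 (26.3%), against 10.5%. None of the 4 motifs contains another, and these shares were not tested. Among the 17 genes called lower that had a promoter, 3 held CCGGAAG, 3 ACGTGC, 5 GCGCATG and 5 AAGATGG. Among the 21 not called the counts were 4, 2, 4 and 5 in that order.

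Subunit genes had smaller differences. The 33 tested comprised 14 called lower, 0 called higher and 19 not called, with a median difference of -0.37 and an interquartile range from -0.51 to -0.13. Both spheroids signals lay below both monolayer signals for 24 subunits (72.7%), against 36.6% of all tested genes. They lay above them for 2, against 33.4% of all tested genes, and overlapped for 7. The share called lower was 42.4% for subunits and 62.5% for assembly factors, beside the 20.6% of all tested genes. These shares are not at like brightness. On spheroids replicate 1 the median log2 signal was 12.46 for subunits, 10.94 for assembly factors and 10.38 for all tested genes. Without the intensity trend the shares were 27.3%, 62.5% and 17.5% in that order. Without spheroids replicate 2, 6 subunits (18.2%) were lower, against 16.6% of all tested genes. The subunit median was 0.27 above that of the assembly factors (0.26 to 0.34 under the alternatives run). Taken instead from the median log2 signal of each class per array, the distance was 0.15. The interquartile range of the assembly factors, -0.94 to -0.35, overlapped that of the subunits. The difference between the classes was not tested, since the genes of a class are not replicates.

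**Figure D2:**
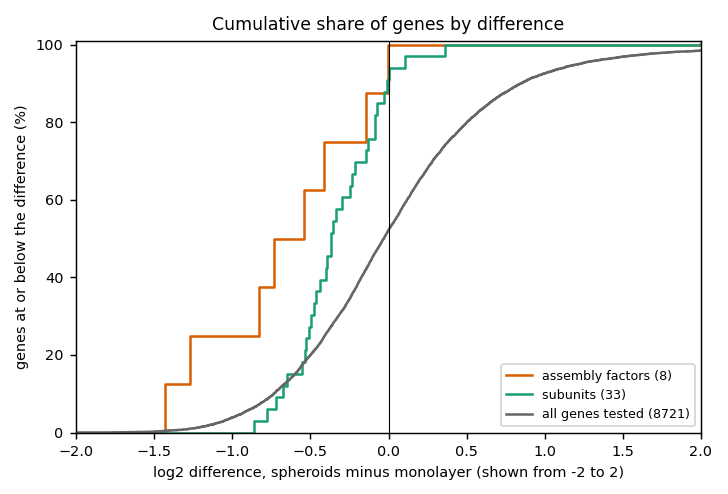
Share of genes (y, %) at or below each log2 difference between spheroids and monolayer (x, shown from -2 to 2) for 8 assembly factors, 33 subunits and all 8721 genes tested. Both complex I curves reach their midpoints left of 0, at -0.64 and -0.37, and the curve of all genes does so at -0.03.

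The median log2 signal moved the same way on each array. Subunits had medians of 12.46 and 12.34 on the spheroids arrays and 12.78 and 12.70 on the monolayer arrays. For assembly factors the medians were 10.94 and 10.74 on the spheroids arrays and 11.32 and 11.34 on the monolayer arrays. The groups did not overlap in either class, and spheroids replicate 2 was the lowest array for both. In the 4 pairings of a spheroids with a monolayer array, 26 to 31 of 33 subunits and 7 or 8 of 8 assembly factors were lower in spheroids. These pairings reuse the same 4 arrays and are not independent. Of all 8721 tested genes, 4553 had a negative mean difference, and their counts per pairing were not taken.

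**Figure D3:**
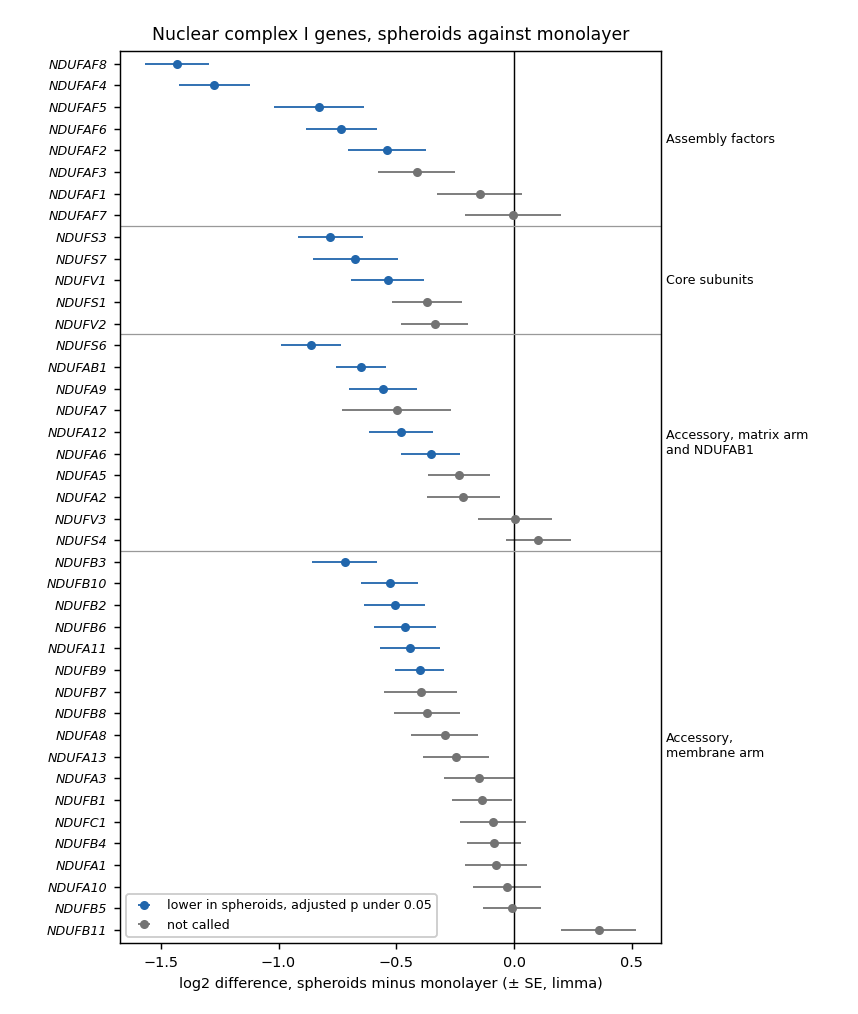
Log2 difference between spheroids and monolayer (x, points with SE bars from limma, 2 arrays per group) for the 41 complex I genes (y, grouped by role), with lower calls in blue and the rest in grey. NDUFAF8 and NDUFAF4 lie furthest left at -1.43 and -1.27, and NDUFB11 furthest right at 0.36, not called.

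Both spheroids signals lay below both monolayer signals for all 5 nuclear core subunits matched by name, against 36.6% of all tested genes. Of these 5 subunits, 3 were called lower, against 20.6% of all tested genes, and their median difference was -0.54. Those of the quinone-reducing part, NDUFS3 and NDUFS7, were both called, and of the 3 at the NADH-binding tip only NDUFV1 was. The other nuclear core subunits were not analysed here.

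NDUFS3, which joins the quinone module at its start, had 3482 and 3404 units in spheroids against 5740 and 6136 units in monolayer (-0.78 ± 0.14, limma adjusted p = 8.25e-04). NDUFS7, which carries the last iron-sulphur cluster before quinone and is the substrate of NDUFAF5, had 1201 and 999 units in spheroids against 1847 and 1689 units in monolayer (-0.67 ± 0.18, limma adjusted p = 0.0108). Both spheroids signals of NDUFS7 lay below both monolayer signals, as for NDUFAF5 and NDUFAF8. The same held for 75.6% of the 41 genes and 36.6% of all tested genes, so it was not particular to these genes. The call of NDUFS7 was lost without spheroids replicate 2 (-0.54) or monolayer replicate 1 (-0.61). NDUFV1, which binds NADH and flavin, had 2313 and 2615 units in spheroids against 3384 and 3790 units in monolayer (-0.54 ± 0.15, limma adjusted p = 0.0154), a call lost without spheroids replicate 1 (-0.45) or monolayer replicate 2 (-0.46).

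NDUFS1 and NDUFV2, iron-sulphur proteins of the tip, did not overlap between groups but missed the threshold. NDUFS1 had 2375 and 2536 units in spheroids against 3179 and 3184 units in monolayer (-0.37 ± 0.15, limma adjusted p = 0.0673). For NDUFV2 the signals were 6082 and 5152 in spheroids and 7589 and 6609 in monolayer (-0.34 ± 0.14, limma adjusted p = 0.0773).

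The promoter of NDUFS3 is shown because this core subunit had the largest decrease of the 5 and held a motif on either strand. The 250 bases before its RefSeq start lie at chr11:47578824-47579073 on the plus strand (GRCh38.p14), and capitals mark CCGGAAG and its reverse complement.
NDUFS3: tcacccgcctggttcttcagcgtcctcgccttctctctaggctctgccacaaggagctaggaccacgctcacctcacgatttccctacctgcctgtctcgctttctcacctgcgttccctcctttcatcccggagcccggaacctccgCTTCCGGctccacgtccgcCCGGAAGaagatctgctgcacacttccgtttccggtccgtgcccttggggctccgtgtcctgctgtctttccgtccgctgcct
Such a match is a description of these letters only.

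Accessory subunits were lower for 11 of 28 (39.3%), with a median of -0.32, against 20.6% of all tested genes. In the matrix arm 4 of 9 (44.4%) were lower (NDUFS6, NDUFA9, NDUFA12 and NDUFA6) with a median of -0.35, and in the membrane arm 6 of 18, or 33.3% (NDUFB3, NDUFB10, NDUFB2, NDUFB6, NDUFA11 and NDUFB9) with a median of -0.27. The remaining lower gene was NDUFAB1, which is bound to both arms. The shares of the 2 arms were not tested against each other.

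NDUFS6, a zinc-binding subunit added late to the matrix arm, had the largest decrease of any subunit. Its signals were 5569 and 5493 in spheroids and 9481 and 10722 in monolayer, a spheroids mean 0.548 of that in monolayer (-0.86 ± 0.13, limma adjusted p = 2.83e-04). NDUFA9, which sits where the matrix arm meets the membrane, had 2836 and 2780 units in spheroids against 4080 and 4205 units in monolayer (-0.56 ± 0.14, limma adjusted p = 0.00863). NDUFAB1, the mitochondrial acyl carrier protein, which also serves fatty acid synthesis, was among the brightest probe sets of the 41, with 19530 and 17900 units in spheroids against 28718 and 29955 units in monolayer (-0.65 ± 0.11, limma adjusted p = 5.35e-04). The replicates of these 3 genes were close within each group, and their calls held under all alternatives.

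The promoter of NDUFS6 is shown as that of the subunit with the largest decrease. It lies at chr5:1801157-1801406 on the plus strand (RefSeq, GRCh38.p14), and capitals mark GCGCATG, the one of the 4 motifs found in it.
NDUFS6: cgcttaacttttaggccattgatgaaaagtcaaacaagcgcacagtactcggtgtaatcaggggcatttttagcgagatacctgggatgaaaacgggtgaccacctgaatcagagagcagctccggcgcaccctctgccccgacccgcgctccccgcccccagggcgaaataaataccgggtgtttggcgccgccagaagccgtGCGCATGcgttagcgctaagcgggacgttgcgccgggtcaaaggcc
As above, the capitals mark letters and not a tested site.

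In the membrane arm NDUFB3 and NDUFB10, both accessory subunits of its distal part, had the largest decreases. NDUFB3 had 3458 and 3198 units in spheroids against 5378 and 5616 units in monolayer (-0.72 ± 0.14, limma adjusted p = 0.00155). NDUFB10 had 11733 and 10233 units in spheroids against 15262 and 16359 units in monolayer (-0.53 ± 0.12, limma adjusted p = 0.00449), a call lost without spheroids replicate 2 (-0.43). The other called members of this arm ran from -0.51 for NDUFB2 to -0.40 for NDUFB9, with NDUFB6 at -0.46 and NDUFA11 at -0.44. All 4 calls were lost without spheroids replicate 2, at -0.46 for NDUFB2, -0.37 for NDUFB6, -0.36 for NDUFA11 and -0.36 for NDUFB9. NDUFA6, at -0.35 ± 0.13 (limma adjusted p = 0.0399), was the called gene nearest to the threshold and lost its call under most alternatives.

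The 17 accessory subunits that were not called had differences from -0.50 for NDUFA7 to 0.36 for NDUFB11. NDUFA7 had 1466 and 1013 units in spheroids against 1407 and 2138 units in monolayer, replicates far enough apart for the groups to overlap (-0.50 ± 0.23, limma adjusted p = 0.107). NDUFB8, a membrane-arm subunit often used as a protein marker of the complex, missed the threshold at -0.37 ± 0.14 (limma adjusted p = 0.0523). Its second probe set, with 5374 and 5382 units in spheroids against 7474 and 8461 units in monolayer, gave -0.56 and passed in a fit over all probe sets (limma adjusted p = 0.00891). NDUFB7 lay at -0.40 and NDUFA8, NDUFA13, NDUFA5 and NDUFA2 between -0.30 and -0.21, and NDUFA3 and NDUFB1 at -0.15 and -0.13, all without overlap of the groups. NDUFC1, NDUFB4, NDUFA1, NDUFA10, NDUFB5 and NDUFV3 overlapped, with differences between -0.09 and 0.00.

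NDUFB11, a membrane-arm subunit encoded on the X chromosome, was the member furthest in the other direction. It had 4710 and 3674 units in spheroids against 3349 and 3127 units in monolayer, so spheroids replicate 1 stood above the other 3 arrays (0.36 ± 0.16, limma adjusted p = 0.0920). Without spheroids replicate 2 it was called higher (0.54, limma adjusted p = 0.0394), as were 14.9% of all tested genes under that setting, and with spike-in scaling its difference was -0.50. NDUFS4, a matrix-arm subunit, had 4284 and 4191 units in spheroids against 4079 and 3808 units in monolayer (0.10 ± 0.14, limma adjusted p = 0.587), and -0.75 with spike-in scaling.

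More than 1 probe set above the filter read 10 of the 41 genes, and these readings had the same sign for 9. The exception was NDUFV3, at 0.00 for the brighter and -0.19 for the dimmer probe set. NDUFA11, NDUFB10 and NDUFB2 had larger decreases on their dimmer probe sets (-0.69, -0.71 and -0.75) than on the ones used.

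NDUFA4, named for complex I but found with cytochrome c oxidase and listed on the array annotation as COXFA4, falls outside the naming rule. It had 8685 and 8867 units in spheroids against 12006 and 10687 units in monolayer (-0.37 ± 0.12, limma adjusted p = 0.0317). Its hypoxia-induced relative NDUFA4L2 (COXFA4L2) was dim on every array, with 24.2 and 9.10 units in spheroids and 20.3 and 5.76 units in monolayer, and was not tested.

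Complex I assembly also depends on factors outside the NDUFAF series, of which 14 were tested. In spheroids 8 of them (57.1%) were lower and 0 higher, with a median of -0.52, against 20.6% of all tested genes called lower. SFXN4, a sideroflexin, had 1608 and 1375 units in spheroids against 2963 and 3006 units in monolayer (-0.99 ± 0.16, limma adjusted p = 5.51e-04). CHCHD4, the oxidoreductase of the intermembrane space import pathway, had 1470 and 1399 units in spheroids against 2306 and 2700 units in monolayer (-0.79 ± 0.17). The groups were far apart for both genes, as for COA1 (-0.77) and TMEM126B (-0.75). With NDUFAF1, ECSIT, ACAD9, TIMMDC1 and TMEM186, these last genes make up the MCIA complex, of whose 7 members 3 were lower (COA1, TMEM126B and TIMMDC1), with a median of -0.40. TIMMDC1 lost its call without spheroids replicate 1 (-0.50), spheroids replicate 2 (-0.49) or monolayer replicate 2 (-0.27). The count of 8 was 5 without monolayer replicate 2, 12 with spike-in scaling (where 42.4% of all genes were lower) and 3 of 9 without the probe sets that can bind related transcripts (where 18.3% were).

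**Figure D4:**
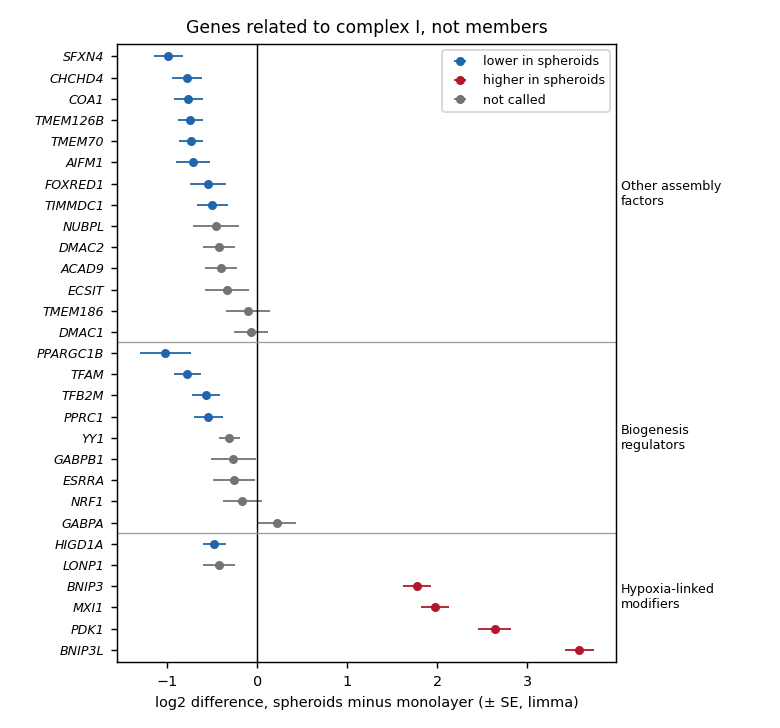
Log2 difference between spheroids and monolayer (x, points with SE bars from limma) of genes related to complex I that were tested: 14 other assembly factors, 9 regulators of mitochondrial biogenesis and 6 hypoxia-linked modifiers of respiration. Blue marks genes called lower, red higher and grey not called, and the 4 red genes lie between 1.77 and 3.58.

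Of the complex I subunits encoded in mitochondrial DNA, 3 had a tested probe set and went different ways. ND4 had 72322 and 70901 units in spheroids against 60862 and 54125 units in monolayer and was called higher (0.32 ± 0.09, limma adjusted p = 0.0180). That call was lost without spheroids replicate 1 (0.30) or 2 (0.33), with quantile normalization (0.17), without the intensity trend and without the filter. It was also lost with spike-in scaling, where the difference was -0.55. ND2 was not called (0.26 ± 0.13, and -0.61 with spike-in scaling). ND6, the only one of these genes on the light strand, was lower, with 1501 and 1458 units in spheroids against 4460 and 9707 units in monolayer, whose replicates were themselves far apart (-2.13 ± 0.27).

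In the list of regulators of mitochondrial biogenesis, 4 of the 9 tested (44.4%) were lower and 0 higher, with a median of -0.31, against 20.6% and 19.0% of all tested genes. TFAM, which packages and helps transcribe mitochondrial DNA, had 2163 and 2312 units in spheroids against 3898 and 3815 units in monolayer (-0.78 ± 0.15, limma adjusted p = 0.00141). Its partner in transcription initiation TFB2M was lower as well (-0.57 ± 0.16). Of the coactivators of the PGC-1 family, PPARGC1B (-1.02 ± 0.29) and PPRC1 (-0.54 ± 0.16) were lower, and PPARGC1A did not pass the filter. PPARGC1B had 185 and 331 units in spheroids against 503 and 575 units in monolayer. It passed the filter through its monolayer signals, so its lower call is tied to the filter. With no filter 2 of the 9 were lower, and the calls of PPARGC1B and TFB2M were lost. Without spheroids replicate 1 only TFAM was still called, with PPARGC1B at -0.65, TFB2M at -0.42 and PPRC1 at -0.47. The call of TFB2M was also lost without monolayer replicate 2 (-0.43), and that of PPRC1 without monolayer replicate 1 (-0.58) or 2 (-0.51). The transcription factors whose motifs were searched above, NRF1 (-0.17), GABPA (0.22) and YY1 (-0.31), were not called. YY1 had no settled direction, because its probe sets disagreed: it was called higher as the mean of its tested probe sets (0.45) and without those that can bind related transcripts (1.03), and lower without monolayer replicate 2 (-0.38) and with spike-in scaling (-1.17). GABPA was -0.02 as the mean of its probe sets and -0.61 with spike-in scaling.

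Among 8 hypoxia-linked modifiers of respiration, 6 were tested, and 4 (66.7%) were higher, against 19.0% of all tested genes. BNIP3L and BNIP3, receptors for the removal of mitochondria by autophagy, differed by 3.58 ± 0.16 and 1.77 ± 0.15. PDK1, a kinase that inhibits pyruvate dehydrogenase, was higher by 2.64 ± 0.18, and MXI1, a MYC antagonist, by 1.97 ± 0.16. With spike-in scaling these 4 remained positive, at 2.72, 0.91, 1.81 and 1.12, although BNIP3 was then not called. HIGD1A, a small protein of the inner membrane, was lower (-0.48 ± 0.13), a call lost without spheroids replicate 2 (-0.42) or monolayer replicate 1 (-0.36). As the mean of its probe sets HIGD1A was at -0.30 and not called, and without those that can bind related transcripts it was at 0.18, so its direction depended on the probe set. The protease LONP1 was not called (-0.42 ± 0.18).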

How the data were processed

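Per the labels and the study's methods, RNA of 2 spheroids and 2 monolayer cultures was hybridised to Affymetrix U133 Plus 2.0 arrays, and the authors normalized each array with MAS5 (no version is named in the sources used here). The deposited values are linear signal intensities for 54675 probe sets, without detection calls, with a trimmed mean of about 500.1 on each array. The number of arrays limits the precision.

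Probe sets were named through the platform annotation (41091 with 1 symbol, 1801 with several, which were not used). Those with a mean above 300 were kept, the brightest representing each gene. log2(signal + 32), which understates changes of dim genes, was tested with limma 3.58.1 in R 4.3.3 (lmFit, eBayes with intensity trend, two-sided, Benjamini-Hochberg over 8721 genes; 2 residual degrees of freedom, prior 10.5). The pipeline was tested on simulated data. Arrays correlated across genes at 0.979 (spheroids), 0.984 (monolayer) and 0.889 to 0.902 between groups. The 3'/5' ratio of ACTB was 2.82 and 3.00 in spheroids and 2.64 and 2.34 in monolayer, and that of GAPDH 0.931 and 0.921 in spheroids and 1.07 and 1.02 in monolayer.

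The fit was repeated without the filter, with constants of 16 and 64, with quantile or spike-in scaling, with other choices of probe set, without the trend, with replicate number as a block and without each array in turn. Genes described array by array were, by rule, all NDUFAF genes, the core subunits, the 8 called subunits with the largest decreases and NDUFA4, and from each related list up to 4 called genes; others given with values were named after these were seen. Members, lists and tests were chosen with earlier results of these data known. Promoters were taken from RefSeq (GRCh38.p14). Longer forms of the NRF1 and YY1 motifs were searched first and gave fewer matches.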

Additional observations from a re-analysis of the deposited data

How the results depend on the processing

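The sign of the subunit and assembly factor medians was the same under all alternatives, and 9 of the 19 calls (NDUFAF8, NDUFAF4, NDUFS6, NDUFAF5, NDUFS3, NDUFAF6, NDUFB3, NDUFAB1 and NDUFA9) were kept under each alternative that tested them. Scaling to the spike-in controls gave 27 lower subunits (81.8%, with 42.4% of all genes lower), medians of -1.22 for subunits and -1.49 for assembly factors, and 3697 lower and 169 higher genes of all tested, so that subunits lay 0.36 and assembly factors 0.62 below the median of all genes. Without _x_at and _s_at probe sets, where fewer genes are tested, 7 of 20 subunits, 2 of 4 assembly factors and 1114 of 6094 genes (18.3%) were lower. Without the intensity trend 9 subunits (27.3%) were lower, with 17.5% of all genes. Quantile normalization gave a subunit median of -0.26 and a distance of 0.34 from the assembly factors. For these the cause was not tested. Leaving out each array gave 6 to 14 lower and 0 to 1 higher subunits, the extremes at 6 and 1 without spheroids replicate 2, where the 6 were 18.2% of subunits and 16.6% of all genes were lower. Replicates share numbers between groups, but the labels name no pairing. Arrays of the same number deviated together at r = 0.323, and the replicate block gave 19 lower subunits (57.6%), 6 lower assembly factors and 1 higher subunit, NDUFB11, with 26.4% of all genes lower and 24.2% higher. Membership without NDUFA4 was not run, because that gene is not a member under its listed symbol. With 2 arrays a group, the smallest difference called among the 41 genes was -0.35.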

Other observations

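Of the 78 probe sets of the 41 genes, 27 averaged under 300 units and entered no comparison. Most were dim on all arrays. A second NDUFA5 probe set had 255 and 182 units in spheroids and 60.2 and 30.1 units in monolayer, higher in spheroids, whereas the brighter NDUFA5 probe set differed by -0.23. A dim NDUFA2 probe set had 14.7 and 27.1 units in spheroids and 122 and 116 units in monolayer, beside -0.21 for the one used. These readings come from the range where the added constant and the background weigh most, and none was tested.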
